A study of Mus musculus with 4 samples.

Results

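Cultured muscle stem cells of the extraocular muscles (EOM), the small muscles that move the eye, included cells with and without the genes of terminal differentiation, and these states are compared here within the activated EOM library across all other genes. A cell was taken from that library when it held at least 5000 unique molecular identifiers (UMIs, counted RNA molecules) and at most 10% of them from mitochondrially encoded (mt-) genes. Cells were then selected on a measured score, the summed UMIs of Myog, Mymk and Mymx per 10000 UMIs. Cells with a score of 10 or more were called differentiating and cells with a score of 2 or less undifferentiated, and those between were left out. Of 7597 barcodes, 5844 passed both limits (76.9%). Among these, 2416 were differentiating (41.3%), 2827 undifferentiated (48.4%) and 601 lay between (10.3%), out of 23170 barcodes in the 4 libraries of the series.

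The series held 1 droplet library each of quiescent EOM, quiescent tibialis anterior (TA, a limb muscle), activated EOM and activated TA cells. All came from Tg:Pax7-nGFP mice of 2 to 4 months, a transgenic line whose nuclear GFP is driven by Pax7, and were sorted on GFP. Quiescent cells were profiled straight after the sort, and activated cells after 4 days on Matrigel in growth media at 3% oxygen. The number of animals behind a library is not given in the sources used here. With 1 library, cells are not replicates of a condition and the sides were cut from a measured score, so no p-value is given. Intervals are exact Poisson or binomial 95% intervals of counting error only.

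Myoblasts are the dividing offspring of muscle stem cells. To form a muscle fibre they leave the cell cycle under CDK inhibitors. They also switch on Myog, a transcription factor of terminal differentiation, and then the structural genes of the sarcomere. They fuse through Mymk (myomaker) and Mymx (myomixer), a pair of membrane proteins. Pax7 and Myf5 mark the stem cell and the early myoblast, Myod1 commits the cell to muscle, and Notch signalling holds it back from differentiation.

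The score had a peak at each end with few cells between them. Its median was 45.8 in differentiating cells (10.0 to 128) and 0.606 in undifferentiated cells, of which 656 (23.2%) had a score of 0. At the limits the cells were close to each other. The highest undifferentiated cell had 3 scoring UMIs among 15002 (score 2.00) and the lowest left-out cell 5 among 24879 (2.01). The highest left-out cell had 21 among 21004 and the lowest differentiating cell 16 among 15998, both with a score of 10.0. Myog made up most of the score, at 3471 CPM (UMIs of the summed cells scaled to a total of 1000000) in differentiating cells against 50.1 CPM in undifferentiated cells. Mymk was at 382 and 12.5 CPM and Mymx at 522 and 6.22 CPM. These 3 genes define the sides and enter no count below.

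**Figure D1:**
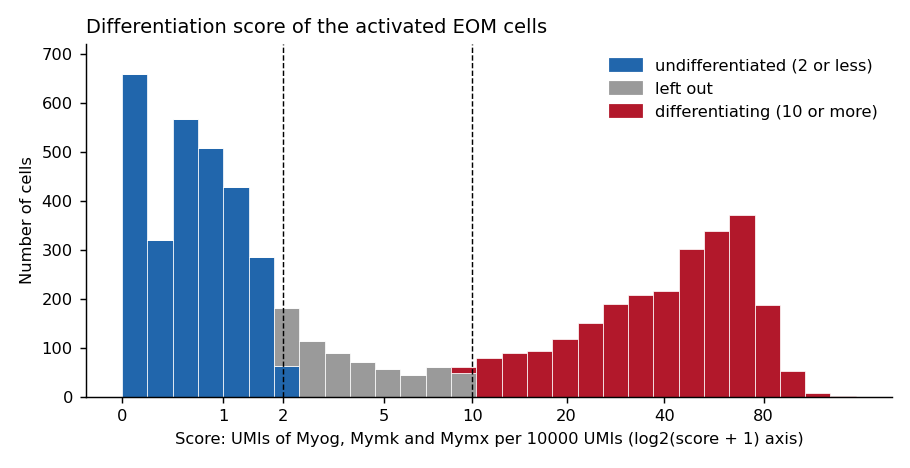
Histogram of the score of the 5844 activated EOM cells past both limits, on a log2(score + 1) axis. Bars are stacked by side, dashed lines mark the limits of 2 and 10. The 601 cells left out lie between a peak of undifferentiated cells, 656 of them at 0, and a broad peak of differentiating cells, whose median was 45.8.

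Differentiating cells had a median of 20808.5 UMIs and 4031 genes, undifferentiated cells 22724 UMIs and 4449 genes. The share of mt- UMIs was 6.62% and 5.95% at the median, from 6.01% in cells with a score of 0 to 6.88% at 40 or more. Its part in the results was not tested. Barcodes shared with activated TA numbered 12, 4 of them differentiating and 3 undifferentiated. Of the 12 markers fixed for muscle stem cells and myoblasts, 10 were at 20 CPM or more in either side. Among these 10, Pax7, Myf5, Sdc4 and Vcam1 were at least 2-fold lower in differentiating cells and Myod1 and Megf10 higher. The other 4, Des, Cdh15, Itga7 and Fgfr4, passed 2-fold neither way. The list summed to 2415 CPM in differentiating and 1501 CPM in undifferentiated cells. The 12 endothelial and 12 macrophage or monocyte markers, and those of neutrophils, T or NK cells, B cells, Schwann or glial cells, erythroid cells, epithelia and neurons, had no member at that level. Their lists summed to 0.0595 to 16.0 CPM in either side, with Ptprc and Tie1 at 0. Among fibroblast markers Lum was at 0 and Dcn and Dpt at 0 and 0.0149 CPM, while Col3a1, Gsn and Dpep1 passed 20 CPM. Among mural markers Pdgfrb, Notch3, Tagln and Acta2 passed it, with Rgs5 at 0.0184 and 0.61 CPM and Myh11 at 0 and 0.0446 CPM.

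Most counted contractile genes and the CDK inhibitors Cdkn1a and Cdkn1c were higher in differentiating cells, as was Myod1. Pax7, Myf5, the Notch targets Hes1, Hey1 and Heyl, the cyclins Ccnd1 and Ccnd2 and many extracellular matrix genes were higher in undifferentiated cells. A gene was counted when its level reached 20 CPM on 1 side or both, which 5572 genes did. Differentiating cells had 412 of them (7.39%) higher and 434 (7.79%) lower by a factor of 2 or more. The higher genes were further apart: 201 were at least 4-fold and 97 at least 10-fold higher, against 98 and 6 lower. Higher genes were 48.7% of the 846 (15.2% of all) past 2-fold. Under edgeR's TMM scaling they were 59.6% (488 higher, 331 lower) and under median-of-ratios scaling 59.9%, as the median log2 ratio over all genes moved from -0.11 to 0.04. The score chose the cells, so these counts describe the sides and support nothing further.

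Many of the most strongly higher genes are sarcomere genes. Muscle basic helix-loop-helix factors such as Myod1 and Myog bind E-boxes, sites of the form CANNTG, so the bases before the starts were searched for them. The 250 bases before the start are shown for 4 sarcomere genes among those with large ratios and for Myf5, an early factor that was lower, from RefSeq (GRCm38.p6). The genes shown were picked by name and not by a rule. Tnnt2 had 2 windows, and the one nearest its GENCODE start is shown. The windows read 5′ to 3′ on the gene's strand, overlap no exon of GENCODE vM21, and have every CANNTG in capitals.
Tnnt2 (chr1:135836084-135836333, plus strand): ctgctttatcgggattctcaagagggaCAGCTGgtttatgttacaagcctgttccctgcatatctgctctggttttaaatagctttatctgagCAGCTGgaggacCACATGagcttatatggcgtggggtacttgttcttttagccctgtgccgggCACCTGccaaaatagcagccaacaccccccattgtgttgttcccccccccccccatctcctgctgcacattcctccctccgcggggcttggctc
Klhl41 (chr2:69669870-69670119, plus strand): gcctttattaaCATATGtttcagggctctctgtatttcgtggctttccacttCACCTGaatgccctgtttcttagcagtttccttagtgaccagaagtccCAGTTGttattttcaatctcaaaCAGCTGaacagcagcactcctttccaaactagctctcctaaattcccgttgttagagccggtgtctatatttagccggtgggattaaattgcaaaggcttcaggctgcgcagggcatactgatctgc
Acta1 (chr8:123894776-123895025, minus strand): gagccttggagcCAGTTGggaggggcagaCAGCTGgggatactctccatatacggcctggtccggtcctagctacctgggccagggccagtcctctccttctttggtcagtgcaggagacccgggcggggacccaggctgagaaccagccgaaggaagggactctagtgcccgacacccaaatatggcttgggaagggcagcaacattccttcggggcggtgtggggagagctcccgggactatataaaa
Mylpf (chr7:127211358-127211607, plus strand): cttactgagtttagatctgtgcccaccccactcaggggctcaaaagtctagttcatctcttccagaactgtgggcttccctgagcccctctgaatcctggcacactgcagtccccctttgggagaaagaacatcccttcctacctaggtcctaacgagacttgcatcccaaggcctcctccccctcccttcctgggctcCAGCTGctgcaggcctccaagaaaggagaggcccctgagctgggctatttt
Myf5 (chr10:107486135-107486384, minus strand): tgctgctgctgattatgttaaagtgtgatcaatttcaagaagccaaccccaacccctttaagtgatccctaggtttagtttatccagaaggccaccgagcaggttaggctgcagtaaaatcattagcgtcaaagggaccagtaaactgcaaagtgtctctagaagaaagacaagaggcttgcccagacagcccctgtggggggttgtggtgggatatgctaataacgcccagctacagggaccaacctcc
The Tnnt2 window held 4 CANNTG, of them 2 CAGCTG and 1 CAGGTG read as CACCTG on this strand. The Klhl41 window also held 4, of them 1 CAGCTG and 1 CAGGTG read in the same way. The Acta1 and Mylpf windows held 2 and 1 CANNTG, each with 1 CAGCTG, and the Myf5 window had none. Myf5 is only 1 of the lower genes, and most windows of the 50 genes with the smallest ratios did hold a CANNTG, as given next. All 4 sarcomere genes shown held CAGCTG, but only 47.1% of the windows of the 50 genes with the largest ratios did.

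Windows of 300 bases, from 250 before to 50 after the start, were searched on both strands for CANNTG and for 2 of its forms, CAGCTG and CAGGTG. Both forms are also counted under CANNTG. Of the 50 genes with the largest ratios at 50 CPM or more, 44 had a window in the table, 68 windows in all, and CAGCTG was in 47.1% of them. It was in 28.6% of the 49 windows of 34 of the 50 genes with the smallest ratios, and in 16.3% of all 32817 windows. CAGGTG was in 35.3%, 18.4% and 20.2%, and CANNTG in 89.7%, 71.4% and 72.3%. These are matches of letters and do not show that a factor binds.

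Most counted contractile genes were higher in the differentiating cells. All 11 counted thick filament members and 17 of 19 counted thin filament members passed 2-fold towards higher and 0 towards lower, with median log2 ratios of 4.43 and 2.95. A member could be counted through the differentiating side alone, which favours higher ratios, and those below 20 CPM on both sides, 14 of 25 and 3 of 22, were not counted. In the lists below too, a member could be counted through its higher side alone, which favours large ratios in either direction. With no filter 22 of 24 and 18 of 22 were higher and 1 and 0 lower. Over all 19311 genes with no filter, 3295 were higher and 4055 lower. Tnnt2 (chromosome 1, 135836354 to 135852260), the cardiac-type troponin T of embryonic muscle, was at 586 CPM in differentiating and 6.89 CPM in undifferentiated cells, 85.2-fold (77.7 to 93.5). Per cell it ranged from 0 to 52.1 UMIs per 10000 on the differentiating side, with a lower quartile of 0.773 and a median of 3.79. On the other side it ranged from 0 to 1.43 with a median of 0, so the ranges of both sides overlapped from 0 to 1.43. Myh3, the embryonic myosin heavy chain, was at 610 and 8.37 CPM, 72.9-fold (67.0 to 79.3).

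The other strongly higher sarcomere genes covered both filaments. Myl1, an essential light chain of fast myosin, was at 441 and 5.82 CPM (75.8-fold, 68.6 to 84.0), and Mylpf, its regulatory partner, at 3230 and 156 CPM (20.8-fold, 20.3 to 21.2). Actc1 and Acta1, the cardiac and skeletal alpha actins, were at 2394 and 44.1 CPM and at 2768 and 91.2 CPM, 54.3-fold (52.4 to 56.4) and 30.3-fold (29.6 to 31.1). In single cells Actc1 spread from 0 to 161 UMIs per 10000 on the differentiating side (median 16.4) and from 0 to 17.5 on the other (median 0.359). Mybph, a myosin-binding protein, was 51.4-fold higher and the slow and fast troponins Tnni1 and Tnnc2 49.9-fold and 24.5-fold. The leiomodins Lmod2 and Lmod3, which nucleate actin for the thin filament, were at 65.3 against 0.402 CPM and 299.9 against 5.86 CPM. Lmod2 had the smallest remaining level of the 50 most higher genes, with the undifferentiated side at 0.615% of the differentiating one, and over the 50 that share reached 10.9% (median 4.34%). Tpm1 (log2 0.90) and Tpm3, a tropomyosin also of non-muscle cells (-0.88), stayed within 2-fold.

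The machinery that builds and drives the sarcomere was higher too. Among 30 Z disc, assembly and chaperone members, 22 passed 2-fold towards higher and 0 towards lower (median 2.15), with Klhl41, a kelch protein that stabilises the thin filament (90.3 and 1.17 CPM, 76.9-fold, 61.5 to 97.3), the Z disc protein Pdlim3 (46.8-fold) and the myosin chaperone Unc45b (69.6-fold). Of 20 excitation-contraction coupling members 16 were higher and 0 lower (median 2.60). Casq2, a calcium store protein, was 85.7-fold higher (58.7 to 130), the calcium pump Atp2a1 21.7-fold and Ryr1, the calcium release channel, 10.8-fold (9.51 to 12.4). Of 10 members of muscle energy metabolism 8 were higher (median 2.29), among them Ckm, muscle creatine kinase (51.3-fold), Mb, myoglobin (65.2-fold), and Pgam2 (35.6-fold), while Slc25a4, the adenine nucleotide carrier, was at 1269 and 1257 CPM. With no filter, 30 of 43, 22 of 32 and 16 of 23 members of the Z disc, coupling and energy lists were higher and 0 lower. Their medians were then 1.91, 1.99 and 1.30. In cells of at most 5% mt- UMIs, 11 of 23 Z disc, assembly and chaperone members were higher, with a median of 0.91, and 5 of 7 members of energy metabolism. Over all 5683 genes counted in those cells, 349 were higher. Glycolysis had 0 of 17 members past 2-fold either way.

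Genes of the future neuromuscular junction were part of the higher set. Chrng, an acetylcholine receptor subunit, was higher by 7.40-fold (6.96 to 7.89) and its partner Chrnd by 5.01-fold (4.54 to 5.54), and Chrna1, already at 525 CPM in undifferentiated cells, was at 1165 CPM (2.22-fold). Dok7, the activator of the receptor kinase MuSK, was at 67.6 and 7.32 CPM (9.24-fold, 8.41 to 10.2). In all 6 of 9 members passed 2-fold towards higher and 0 towards lower, with Rapsn (log2 0.90), Chrnb1 (0.67) and Utrn (-0.18) inside the limit. With no filter, 8 of 15 were higher and 1 lower (median 0.90). In fusion, adhesion and membrane repair, 5 of 23 members were higher and 5 lower. The caveolar genes Cav3 and Cavin4 (26.8-fold and 4.69-fold), Tmem182, Jam3 and the actin-bundling Palld were higher, and Ehd2, the annexins Anxa1 and Anxa5, Vcam1 and Kirrel lower.

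**Figure D2:**
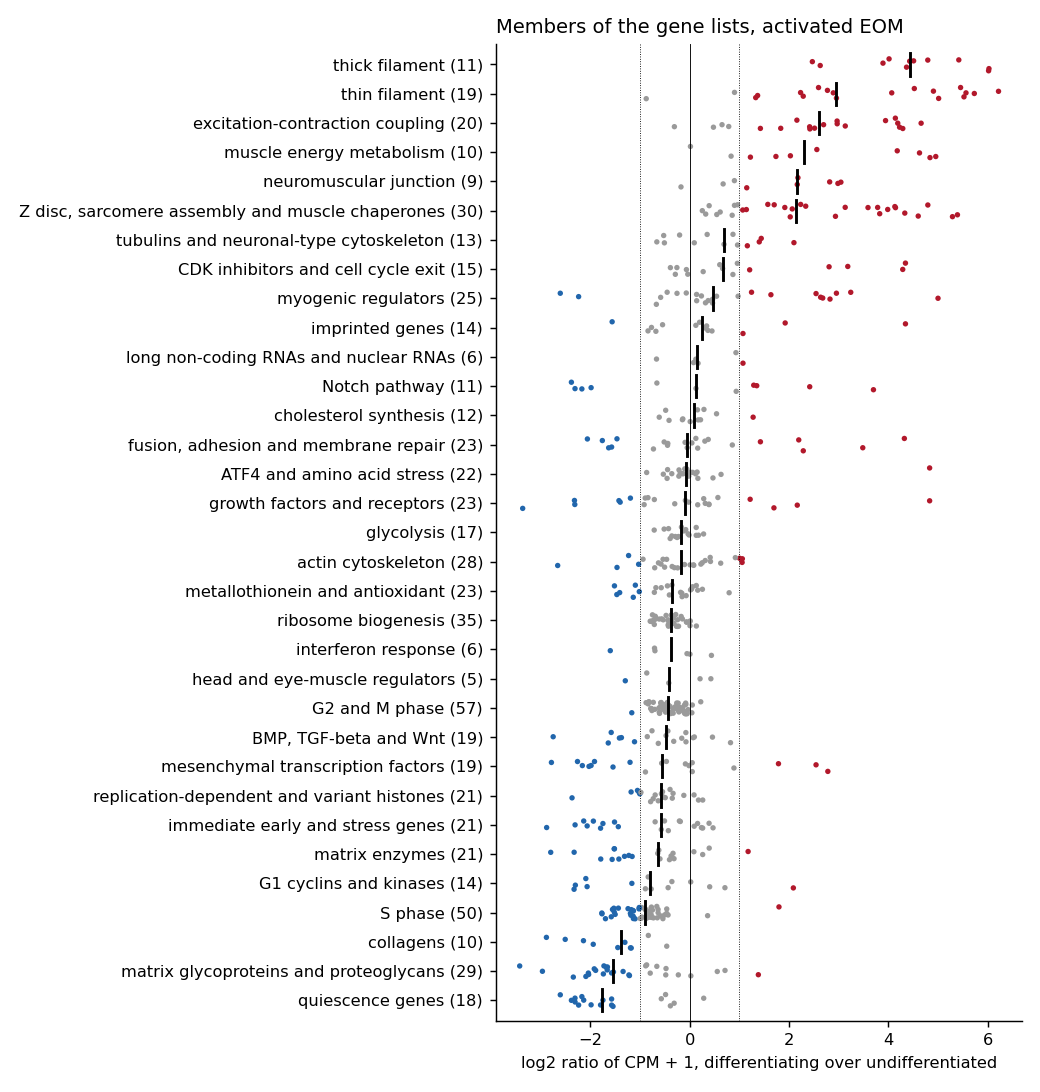
Log2 ratio of CPM + 1 of differentiating over undifferentiated activated EOM cells for the members of each list at 20 CPM or more in either side. Each point is a gene, black bars are medians, dotted lines mark 2-fold and the number in brackets is the members counted. The filament and excitation-contraction coupling lists lie at the top and the collagen, matrix glycoprotein and quiescence lists at the bottom, from a median of 4.43 to one of -1.77.

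Of the 25 myogenic regulators counted, 9 passed 2-fold towards higher, 2, Pax7 and Myf5, towards lower and 14 neither way. Mef2c, a MADS-box factor that acts with Myog, was at 126 and 2.97 CPM (42.4-fold, 36.9 to 49.1), against 6.33-fold (6.09 to 6.58) for Mef2a and 3.24-fold for Mef2d. Myod1 was at 1228 and 191 CPM, 6.43-fold (6.31 to 6.55), with a median of 11.96 UMIs per 10000 in differentiating cells and 0.855 in the others. The RNA-binding genes Rbm24 and Rbm38 were 9.71-fold and 8.80-fold higher and the transcription factor Tead4 8.01-fold. Pax7 (chromosome 4, 139737062 to 139833528) was at 19.1 and 122 CPM, 6.36-fold lower (5.97 to 6.79), and Myf5 at 17.1 and 84.2 CPM, 4.94-fold lower (4.61 to 5.30). EGFP, the reporter transcript named after its values were seen, was at 6.19 and 29.4 CPM, 4.75-fold lower (4.23 to 5.34). Six4, Srf and Tead1 had log2 ratios between 0.23 and 0.46.

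At an equal depth of 5000 UMIs, given as the share of cells expected over all draws, a Myod1 UMI was in 98.3% (97.7 to 98.8) of differentiating and 42.4% (40.5 to 44.2) of undifferentiated cells. Pax7 was in 7.07% (6.09 to 8.17) and 43.8% (41.9 to 45.6), and Myf5 in 6.63% (5.66 to 7.69) and 31.6% (29.9 to 33.3). Without thinning, Pax7 was in 24.2% and 87.7%. Free RNA in droplets adds UMIs to cells that do not make a gene. No cell class that should lack Pax7 was found in the library, so its share was not measured, and the 7.07% is not read as expression.

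The Notch pathway held genes of both directions. The ligand Dll1 was at 43.3 and 2.41 CPM, 18.0-fold higher (15.3 to 21.2), as were the DNA-binding partner Rbpj (2.58-fold), Megf10 (2.54-fold) and Hes6 (chromosome 1, 91411483 to 91414038), a Hes family member that opposes Hes1, at 843 against 157 CPM (5.36-fold, 5.25 to 5.48). The targets Hes1, Hey1 and Heyl were 4.74-fold (4.40 to 5.11), 5.88-fold (5.26 to 6.59) and 4.28-fold (3.89 to 4.72) lower and the receptor Notch3 5.42-fold (4.92 to 5.99). Notch1 had a log2 ratio of -0.66. With 4 of 11 members higher and 4 lower, the list's median was 0.13. Of the Id genes, inhibitors of myogenic basic helix-loop-helix factors, Id3 was 2.17-fold lower (2.14 to 2.19) at 659.6 and 1428 CPM, and Id2 and Id1 had log2 ratios of -0.63 and -0.08.

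The CDK inhibitors Cdkn1c and Cdkn1a were higher and the others counted stayed within 2-fold. Cdkn1c (p57; chromosome 7, 143458339 to 143461050) was at 1027 and 49.6 CPM, 20.7-fold (19.99 to 21.45), and Cdkn1a (p21) at 775 and 38.7 CPM, 20.04-fold (19.3 to 20.9). Cdkn1c ranged in single differentiating cells from 0 to 85.6 UMIs per 10000 (median 6.01) and Cdkn1a from 0 to 51.2 (median 6.85). Rb1, the retinoblastoma gene, was higher by 7.67-fold (7.03 to 8.37), as was the stress gene Gadd45a by 9.56-fold (8.99 to 10.2). Gadd45g was the fifth member past 2-fold of 15, with 0 lower, and Cdkn1b, Cdkn2c and Cdkn2d stayed between -0.39 and 0.27 in log2 ratio. On the other side Ccnd1 and Ccnd2, the cyclins that start the cycle, were 4.33-fold (4.16 to 4.49) and 5.05-fold (4.81 to 5.30) lower and their kinase Cdk6 4.43-fold, while Ccnd3 had a log2 ratio of -0.07. Of 14 G1 members, E2f2 was higher and Ccnd1, Ccnd2, Cdk6, Cdc25a and Myc lower.

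Genes of the cycle itself were only partly lower. In S phase, 22 of 50 members were at least 2-fold lower and 1, the atypical E2F repressor E2f8 (3.59-fold), higher, with a median of -0.90. The replication licensing factor Cdt1 was at 13.4 and 48.0 CPM (3.59-fold lower, 3.31 to 3.89), while Rrm2 had a log2 ratio of -0.46. In G2 and M phase 1 of 57, the centromere factor Hjurp, was at least 2-fold lower and 0 higher, and Top2a and Mki67 were at 265 and 390 CPM and at 131 and 219 CPM, 1.47-fold (1.441 to 1.501) and 1.67-fold (1.62 to 1.72) lower. With the score taken from Mymk and Mymx, without Myog, and the same limits, 1039 cells were differentiating and 3619 undifferentiated. Over all 5659 genes counted there, 889 were at least 2-fold lower. Of the S phase and the G2 and M members, 48 of 50 and 36 of 57 were at least 2-fold lower. With cells of at most 5% mt- UMIs, 132 differentiating and 399 undifferentiated, 3 of 50 and 0 of 57 were at least 2-fold lower. Over all 5683 genes counted there, 259 were. The G2 and M median was then 0.05 in place of -0.43.

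Differentiating cells with lower scores held more cycle transcripts than those with the highest. At 5000 UMIs, Mki67 or Top2a was expected in 50.6% (48.6 to 52.6) of differentiating and 84.1% (82.7 to 85.4) of undifferentiated cells, and in 72.6% and 97.7% without thinning. By score the share was 81.1% at 0, 85.0% above 0 to 2, 84.1% above 2 to below 5, 86.0% at 5 to below 10, 83.4% at 10 to below 20, 70.6% at 20 to below 40 and 32.5% (30.05 to 35.1) at 40 or more. S phase genes summed to a median of 52.4 UMIs per 10000 in cells at 10 to below 20, 38.2 at 20 to below 40 and 15.3 at 40 or more, against 51.6 above 0 to 2. G2 and M genes kept a median of 86.0 at 20 to below 40 and were at 33.2 at 40 or more, where the upper quartile, 80.2, still lay near the 82.5 of cells above 0 to 2. The G2 and M genes were thus at like levels in the bins from 10 to below 40 and in the undifferentiated bins.

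**Figure D3:**
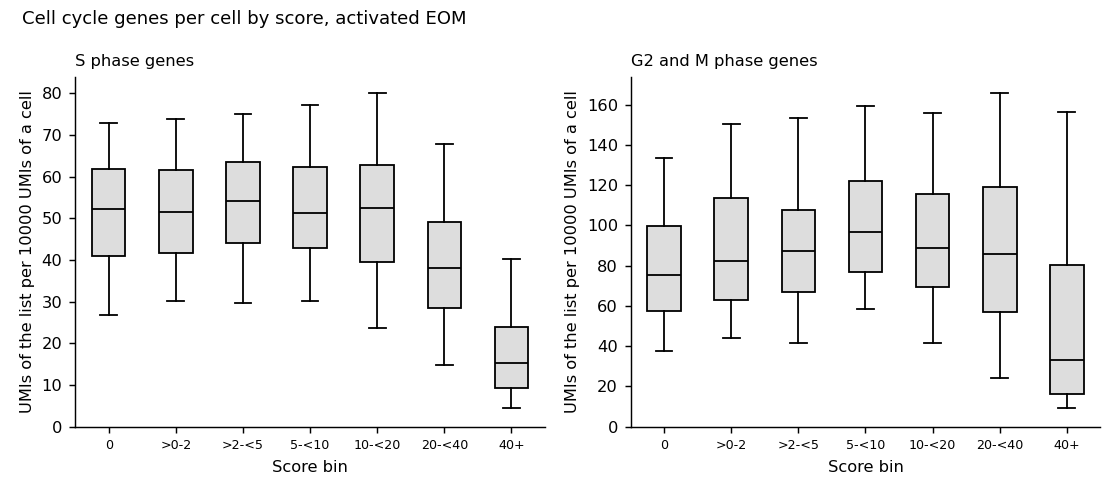
Summed UMIs of the S phase list (left) and the G2 and M phase list (right) per 10000 UMIs of a cell, by score bin. Boxes span the quartiles, lines are medians and whiskers the 5th and 95th percentiles of cells. S phase medians are lower from 20 up and G2 and M medians at 40 or more, where they are 15.3 and 33.2.

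Genes that were higher began to differ at different scores. Myod1 and Hes6 stood at 490 and 338 CPM in cells above 2 to below 5, which the rule leaves out, against 198 and 163 CPM above 0 to 2, and Myod1 was at 1289 CPM at 20 to below 40 and 1220.5 CPM at 40 or more. Rbm24 and Dll1 had their highest levels at 20 to below 40, at 377 and 52.6 CPM. Cdkn1a passed from 66.9 CPM above 2 to below 5 to 155 at 5 to below 10 and 1072 at 40 or more, and Cdkn1c from 78.5 to 127 and 1433 CPM. Other genes had most of their difference from a score of 10 up. Mef2c was at 3.32, 2.89, 3.14 and 3.68 CPM in the 4 bins below 10, then at 18.0, 45.2 and 209 CPM. Tnnt2, at 6.89 CPM in undifferentiated cells, went from 17.0 CPM at 5 to below 10 to 67.2, 223 and 967 CPM, and Actc1 from 98.6 to 292, 1059 and 3850.1 CPM.

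The lower genes also differed in where along the score they were low. Mgp was at 537 CPM in cells with a score of 0, 470 above 0 to 2, 222 above 2 to below 5 and 10.6 at 40 or more, and Pdgfrb at 56.8, 53.6, 25.8 and 0.775 CPM. Pax7 was flat at 120 and 122 CPM in both undifferentiated bins, then 85.1 above 2 to below 5, 42.6 at 10 to below 20 and 5.50 at 40 or more. Hes1 stayed at 71.3 CPM above 2 to below 5 and was at 35.0 at 10 to below 20 and 3.95 at 40 or more. In undifferentiated cells without a single scoring UMI, Actc1 was still at 44.4 CPM, beside the 44.0 CPM of cells above 0 to 2, and Acta1 at 87.0 and 92.3 CPM. In the quiescent EOM library, over 3735 cells with at least 500 genes and not by the limits used for activated cells, Actc1 and Acta1 were at 0.163 and 0.707 CPM. How much of the level in undifferentiated cells is free RNA was not tested.

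**Figure D4:**
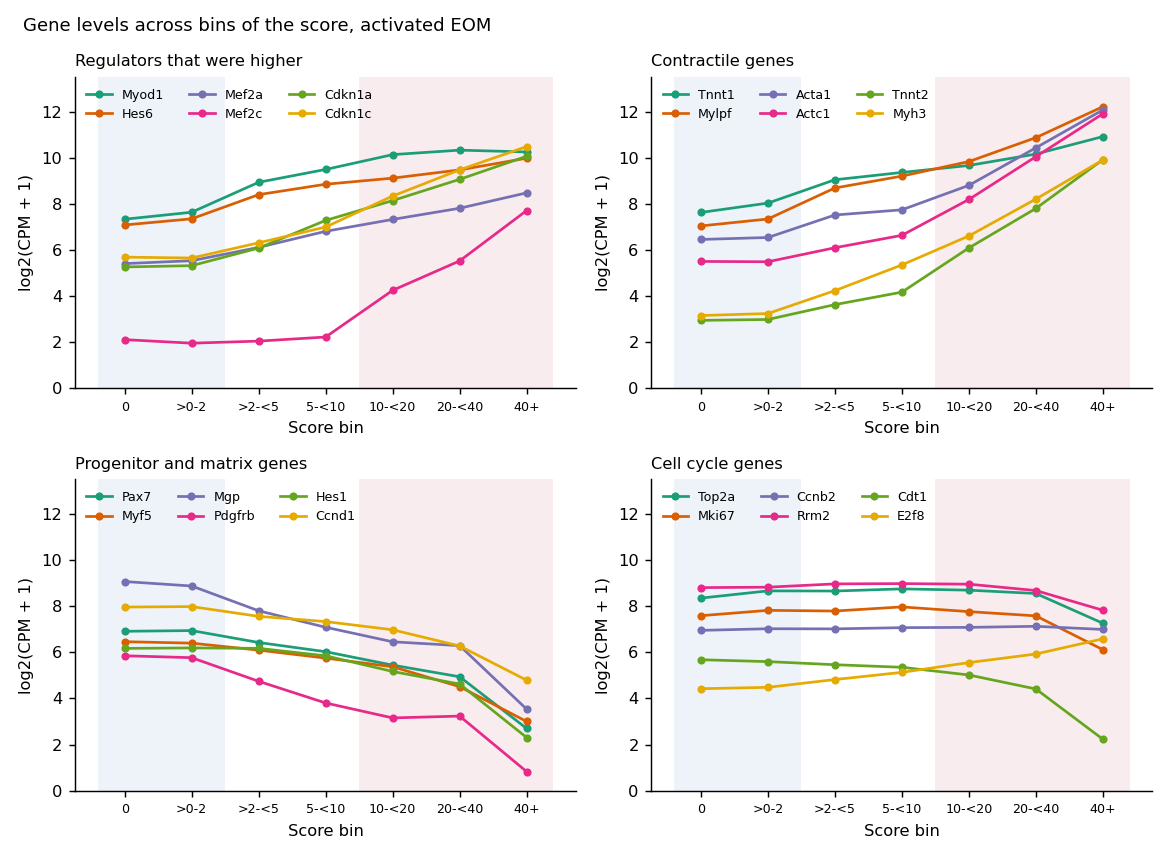
Level of named genes, as log2(CPM + 1) of summed UMIs, in 7 bins of the score. Blue shading marks undifferentiated and red shading differentiating bins, and unshaded bins were left out. Myod1 and Hes6 are higher from above 2 and Mef2c from 10, and Mgp and Pdgfrb are already lower above 2, at 222 and 25.8 CPM.

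Many counted matrix genes lay lower. Of 10 collagens 8 were at least 2-fold lower and 0 higher (median -1.38), of 29 matrix glycoproteins and proteoglycans 18 lower and 1 higher (median -1.54), and of 21 matrix enzymes 10 lower and 1 higher (median -0.65). With no filter, 17 of 25, 39 of 61 and 21 of 42 were lower and 2, 5 and 2 higher. The medians were then -1.09, -0.64 and -0.82. Mgp, matrix Gla protein (chromosome 6, 136872435 to 136875823), was at 44.1 and 483 CPM, 10.97-fold lower (10.5 to 11.4), with cell medians of 0 and 2.81 UMIs per 10000 and highest cells at 19.02 and 40.6. The collagen chains Col5a3, Col6a1 and Col12a1 were 9.82-fold, 6.27-fold and 4.79-fold lower, Col1a2, the most abundant, was at 302 and 748 CPM (2.48-fold), and Col5a2 had a log2 ratio of -0.46. Versican (Vcan) was 5.35-fold, osteopontin (Spp1) 4.31-fold and fibronectin (Fn1) 3.23-fold lower. The exceptions were Ogn, a small proteoglycan, at 51.1 and 19.01 CPM (2.69-fold higher, 2.52 to 2.88), and the metalloprotease Adam19 (2.34-fold).

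Some receptors and transcription factors known from mesenchymal cells were lower and others were not. Pdgfrb, a PDGF receptor, was at 4.35 and 54.2 CPM, 12.4-fold lower (10.9 to 14.3), the largest lower fold among the named genes, and the thrombin receptor F2r and the Wnt receptor Fzd4 were 6.95-fold and 7.75-fold lower. Tm4sf1, Aqp5 and Wisp2, which followed Mgp and Pdgfrb in the order of log2 ratios, were 10.1-fold, 9.52-fold and 8.85-fold lower. Of 19 mesenchymal transcription factors 8 were lower, with Ebf1 7.81-fold (6.9998 to 8.75), Snai2 5.12-fold and Prrx1 3.85-fold, and 3 higher. The 3 were Scx, known from tendon, at 174 and 24.5 CPM (7.11-fold, 6.75 to 7.50), Zeb1 (6.14-fold) and Klf5 (3.67-fold). Of the 6 other tendon markers none passed 20 CPM, and Tnmd and Kera were at 0 on both sides. Of 7 adipocyte markers Car3 was 7.14-fold higher (30.4 and 4.25 CPM), Lpl was at 117 and 110.0 CPM, and Adipoq was at 0 and 0.0149 CPM. The part of such cells in these results was not tested.

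Of 18 quiescence members, which share Pax7, Myf5 and the Notch targets with lists above, 13 were lower and 0 higher (median -1.77). With no filter, 22 of 39 quiescence members were lower and 1 higher (median -0.57). Of 21 immediate early and stress members 9 were lower, 12 passed 2-fold neither way and 0 were higher (median -0.57), and the list summed to 9822 and 9892 CPM. Both lists hold Fos, Egr1, Ier2, Klf2, Klf6, Zfp36 and Btg2, and Fos, Egr1, Ier2 and Klf6 count as lower in each. Egr1 was 4.53-fold (4.28 to 4.79), Ier2 5.29-fold and Fos 3.69-fold lower, whereas Jun, Junb and Jund had log2 ratios of -0.19 to 0.26. Ribosome biogenesis had 0 of 35 members past 2-fold, with Ncl at 1028 and 1731 CPM. Among metallothionein and antioxidant genes 6 of 23 were lower, with Mt1 2.79-fold and Gclc, the rate-limiting enzyme of glutathione synthesis, 2.91-fold. In cells of at most 5% mt- UMIs 2 of 23 were lower, beside 259 of all 5683 genes counted there. The actin cytoskeleton list had 3 higher and 4 lower of 28: the actin-sequestering thymosins Tmsb4x and Tmsb10 and Nexn were higher, and Tagln2 (118 and 754 CPM, 6.37-fold), Cald1, Myh9 and Tpm4 lower. These are 10.7% and 14.3%, beside 7.39% and 7.79% of all genes. With a single score limit of 5, or at most 5% mt- UMIs, 0 of 28 actin members were higher and 3 and 2 lower. Under TMM scaling 8 collagens, 17 matrix glycoproteins, 10 matrix enzymes and 8 mesenchymal factors were lower, and 5 mesenchymal factors higher in place of 3.

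The remaining lists held single genes that stood apart. Fgf21, a secreted hormone, was at 54.1 and 0.937 CPM, 57.8-fold higher (45.0 to 75.4), the only ATF4 and amino acid stress member of 22 past 2-fold. Erbb3, a neuregulin receptor, was 4.82-fold higher. Among imprinted genes Zdbf2 was 4.18-fold and Meg3 2.11-fold (2.05 to 2.19) higher beside Cdkn1c, H19 was at 1487 and 1366 CPM, and Peg10 was 3.22-fold lower. Meg3 turned to -0.50 in log2 ratio, from 1.07, in cells of at most 5% mt- UMIs. Nestin (Nes) and the tubulin genes Tuba4a, Tubb2a and Tubb6 were 4.31-fold, 2.76-fold, 2.64-fold and 2.24-fold higher. The eye-muscle regulators Irx5 (30.1 and 22.2 CPM) and Dmrta2 (18.5 and 25.1 CPM) stayed within 2-fold, and Foxc1 was 2.65-fold lower at 7.88 and 20.9 CPM.

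Activated TA, processed in the same way, gave 2173 differentiating and 1280 undifferentiated cells, with 298 (5.5%) of 5423 genes higher and 172 (3.17%) lower by 2-fold or more, 8.67% together. The sides lay closer together on the score in TA. The median score was 34.95 in differentiating and 0.831 in undifferentiated TA cells, against 45.8 and 0.606 in EOM. Of 4428 TA cells past both limits 975 lay between the sides, against 601 of 5844 in EOM. How far the counts and ratios of TA depend on these scores was not tested. Each muscle is 1 library, so the difference between the muscles was not tested. Among 5204 genes at 20 CPM or more in both, 275 were higher in both, 75.5% of the 364 of EOM and 96.8% of the 284 of TA. Fewer lower genes were shared: 151, which is 46.9% of the 322 of EOM and 93.8% of the 161 of TA, and 0 genes were past 2-fold in opposite directions. Across genes, which are not independent replicates and were scored by the same rule, the log2 ratios had a Pearson r of 0.953 and a Spearman rho of 0.911. They were at least 1 log2 unit apart for 67 genes, 57 of them with the higher log2 ratio in EOM.

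Several genes with a larger ratio in EOM were contractile or myogenic genes that TA undifferentiated cells held at a higher level. Tnnt2 was at 1070 and 182 CPM in TA (log2 2.55, against 6.22 in EOM), Acta1 at 5647 and 887 CPM (2.67 against 4.91), Mylpf at 4860 and 733 CPM (2.73 against 4.37) and Myod1 at 1470 and 753 CPM (0.97 against 2.68). Myl1 and Actc1 had ratios that differed little, 6.10 against 6.02 and 5.65 against 5.73, although Actc1 stood at 699.6 and 13.0 CPM in TA. Cdkn1c was at 59.2 and 5.34 CPM in TA, below EOM on both sides, with a ratio of 3.25 against 4.34. Among lower genes, the ratio was closer to 0 in TA for Ebf1 (-1.47 in TA against -2.79), Prrx1 (-0.67 against -1.92) and Fbn1 (-0.81 against -1.90). Collagens had 1 of 7 members lower in TA and matrix glycoproteins 8 of 20, with medians of -0.53 and -0.76. Meg3 (2.98 in TA against 1.07) and Dclk1 (3.97 against 2.50) had the larger ratio in TA.

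**Figure D5:**
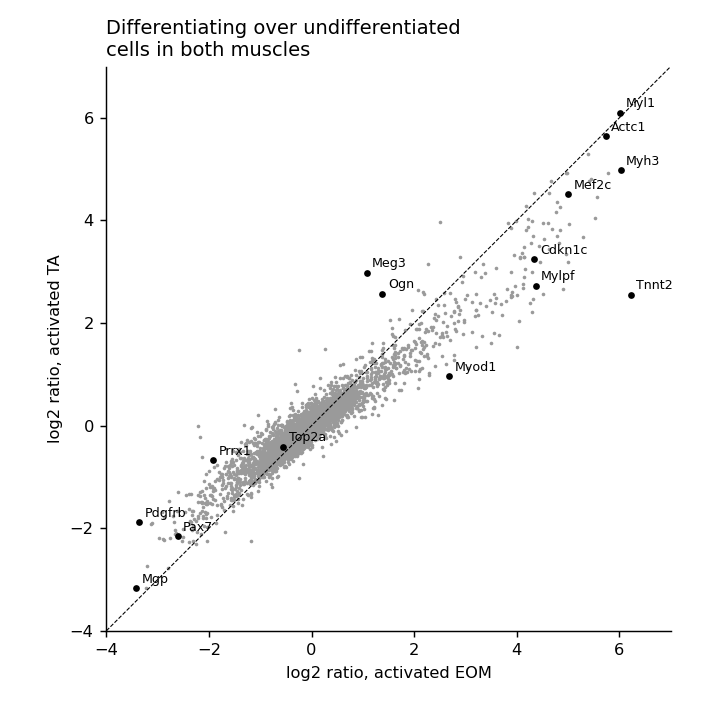
Log2 ratio of CPM + 1 of differentiating over undifferentiated cells in activated EOM (horizontal) and activated TA (vertical). Shown are the 5572 genes at 20 CPM or more in either side of activated EOM, whatever their level in TA. Each point is a gene, the dashed line marks equal ratios, and named genes are in black. Tnnt2 lies far to the right of the line at 6.22 and 2.55. Of the 5204 genes at 20 CPM or more in both muscles, none was past 2-fold in opposite directions.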

How the data were processed

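Each of 4 droplet libraries of sorted muscle stem cells was read from its matrix. The authors' deposited values are UMI counts per gene and barcode from Cell Ranger 3.0.2 on mm10, per the submitters' processing notes and the file headers. Nothing in the sources used here states the annotation release, strand setting or cell calling. The members, the 33 gene lists, the 15 marker lists and all rules were chosen with earlier results of these data known. UMIs were summed per side and scaled to CPM (Python 3.11.15, numpy 2.4.6, scipy 1.17.1, pandas 2.3.3). Log2 ratios add 1 CPM to each side. Genes needed 20 CPM in either side and were counted at 2-fold; the calculation was checked on simulated data. Fold intervals are exact Poisson intervals and shares have exact Clopper-Pearson intervals, at 95%. A share at 5000 UMIs is the expectation over all draws of that many UMIs without replacement, in place of 1 random draw, and its interval uses the rounded expected count. UMIs of 1 library carry counting error only.

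Named genes are the 15 largest and 15 smallest log2 ratios at 50 CPM or more (without sex-linked genes, haemoglobins, mt- genes, ribosomal proteins and unnamed models), up to 4 members at each end of every list, and all members of the regulator, CDK inhibitor, filament, Notch and junction lists. Cdc25a, Col1a2, Dclk1, EGFP, Fbn1, Fn1, Fos, the Id genes, Jun, Kirrel, Palld, Prrx1 and Ryr1 were named after their values were seen. Some genes that this rule takes are not reported here. Positions are from GENCODE vM21, which held 31011 of 31055 features. Depth was 144188957 UMIs in activated EOM and 118537060 in activated TA. edgeR 4.0.16 (R 4.3.3) gave TMM factors only. Scrublet (scanpy 1.11.5) called 2 doublets by its automatic threshold and so had not worked. Doublets were kept, and removing the 355 highest scores was an alternative. Other alternatives changed the score, its limits, depth, the mt- limit, scaling, weighting, pseudocount and low-level filter.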

Additional observations from a re-analysis of the deposited data

How the results depend on the processing

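With low-level filters of 5 CPM, 50 CPM or none in place of 20, 691, 234 and 3295 genes were at least 2-fold higher and 890, 172 and 4055 lower, as different numbers of genes were counted. The lower count of 434 became 889 with the score from Mymk and Mymx (1039 differentiating and 3619 undifferentiated cells). It became 927 in cells without Mki67 or Top2a (663 differentiating and 65 undifferentiated) and 259 at no more than 5% mt- UMIs. The cause was not tested. The higher count of 412 stayed between 349 and 584 under the 14 alternatives that kept the filter. Under these 14, 164 of the 166 named genes past 2-fold kept their direction. The 2 exceptions, both in cells of at most 5% mt- UMIs, were Meg3 at -0.50 and Hist1h1e at 0.10 in log2 ratio, and the cause was not tested. Sizes were less stable than directions. Over the 304 genes that the naming rule takes and these 14 alternatives, 2208 log2 ratios moved by more than their counting interval allows. A further 2046 did not, and 2 reversed. Removing the 355 highest doublet scores took out 8.03% of differentiating and 3.40% of undifferentiated cells and left 445 genes higher and 515 lower. The share of differentiating cells with Mki67 or Top2a was 45.4% with limits of 20 and 0, 53.2% with a single limit of 5, 50.4% at 10000 UMIs or more, 48.0% without the highest doublet scores and 74.7% (66.7 to 82.1) at no more than 5% mt- UMIs, a set of alternatives chosen after seeing the data. The medians of the fusion, growth factor and ATF4 lists, at -0.05, -0.09 and -0.08, were 0.08, 0.08 and 0.05 under TMM scaling, and that of the head and eye-muscle list was -0.42 over 5 members and 0.02 over the 4 counted under TMM. No paired analysis was possible because each group is 1 library and the labels carry no replicate numbers.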
